A study of Mus musculus with 6 samples.

Results

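The genes of phase II conjugation, the step that joins a polar group to drugs, hormones and reactive metabolites, were examined in liver RNA-seq of ethanol-exposed and control mice. They were chosen by gene symbol from 28880 genes in the deposited table and comprise 61 genes: 26 glutathione S-transferases (GST), 20 UDP-glucuronosyltransferases (UGT) and 15 sulfotransferases (SULT), with pseudogenes left out. All mice were wild-type male C57BL/6J of 6 to 8 weeks. In the ethanol group, 3 mice went without food for 12 h before a single gavage by mouth (6 g/kg, given as ethanol at 50% v/v), and their livers were taken 24 h afterwards. The control group held 3 mice kept without ethanol. Whether the control mice were also fasted or gavaged is not given in the sources used here, so ethanol, fasting and gavage cannot be told apart. Each library came from 1 mouse, and all 6 carry the same batch label.

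Conjugating enzymes act after oxidation by cytochromes P450 or directly on compounds that already carry a reactive or hydroxyl group. GSTs join glutathione to electrophiles such as the aldehydes of lipid peroxidation, UGTs transfer glucuronic acid from UDP-glucuronate to bilirubin, bile acids, steroids and drugs, and SULTs transfer sulfate from phosphoadenosine phosphosulfate (PAPS) to phenols, steroids and bile acids. The conjugates leave the hepatocyte through membrane transporters into bile or blood. Many of these genes are known targets of the nuclear receptors PXR and CAR, of the aryl hydrocarbon receptor, and of NRF2, which binds antioxidant response elements.

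The libraries held 60514417 to 74210869 counts, of which the 61 genes took 1.13% to 1.33% in the ethanol group and 1.46% to 1.51% in the control group. Markers of the liver were present throughout. The 10 hepatocyte markers summed to 145000 to 154000 CPM (counts scaled to library size and TMM factors) after ethanol and 73500 to 85100 in controls, with 4 of the 10 called higher. The TMM factors, 0.768 to 0.836 after ethanol and 1.26 to 1.27 in controls, raise CPM after ethanol relative to library size alone. This offset enters every CPM sum given here. Erythroid markers also differed (579 to 864 CPM against 180 to 220, with 4 of 5 genes called higher), as did neutrophil markers (2.10 to 12.1 CPM against 0.279 to 0.330, with 4 of the 4 tested of 7 called higher). The part of these cell types in the values below was not tested. In bulk tissue, a change in the number of cells of a type and one in the RNA per cell cannot be told apart.

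The upstream sequences of 6 of the 8 genes called below are shown first, so that what stands before each can be compared. Those of Gstt2 and Gsto2 are not shown, and Gsto2 had at most 23 counts in any library. Each line gives the 250 bases before the annotated start site in RefSeq (build GRCm38.p6), 5′ to 3′ on the strand of the gene, with a match to either searched motif in capitals.
Sult1a1 (chr7:126676419-126676668, minus strand): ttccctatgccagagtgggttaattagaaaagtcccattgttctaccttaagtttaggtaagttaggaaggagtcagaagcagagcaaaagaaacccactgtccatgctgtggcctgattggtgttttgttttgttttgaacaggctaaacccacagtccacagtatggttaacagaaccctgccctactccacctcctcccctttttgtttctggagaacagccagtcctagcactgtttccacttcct
Sult1d1 (chr5:87569007-87569256, minus strand): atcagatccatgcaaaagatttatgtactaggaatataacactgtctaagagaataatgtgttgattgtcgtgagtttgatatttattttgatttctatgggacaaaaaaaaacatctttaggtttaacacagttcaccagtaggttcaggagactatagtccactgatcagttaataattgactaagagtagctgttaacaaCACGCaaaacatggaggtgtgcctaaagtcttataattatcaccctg
Sult1e1 (chr5:87591612-87591861, minus strand): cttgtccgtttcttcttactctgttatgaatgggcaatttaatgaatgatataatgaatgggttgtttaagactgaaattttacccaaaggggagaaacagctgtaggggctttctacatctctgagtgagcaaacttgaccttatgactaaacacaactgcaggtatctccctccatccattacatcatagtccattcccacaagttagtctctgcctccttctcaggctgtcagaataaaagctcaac
Gstt3 (chr10:75781423-75781672, minus strand): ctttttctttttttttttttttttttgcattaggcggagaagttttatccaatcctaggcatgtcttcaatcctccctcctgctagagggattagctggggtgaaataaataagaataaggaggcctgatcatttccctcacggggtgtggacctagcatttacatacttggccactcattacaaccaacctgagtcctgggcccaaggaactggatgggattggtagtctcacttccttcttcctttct
Gstm3 (chr3:107969175-107969424, minus strand): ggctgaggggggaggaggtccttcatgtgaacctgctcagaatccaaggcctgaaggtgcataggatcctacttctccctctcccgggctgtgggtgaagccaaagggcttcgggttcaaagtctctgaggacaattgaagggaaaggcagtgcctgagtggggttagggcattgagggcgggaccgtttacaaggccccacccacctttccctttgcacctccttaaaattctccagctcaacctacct
Gstm4 (chr3:108044860-108045109, minus strand): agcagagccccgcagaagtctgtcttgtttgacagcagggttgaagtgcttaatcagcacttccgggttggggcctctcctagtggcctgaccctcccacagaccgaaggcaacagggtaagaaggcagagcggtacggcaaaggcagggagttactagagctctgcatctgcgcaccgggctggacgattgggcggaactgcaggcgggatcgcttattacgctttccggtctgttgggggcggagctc
The motifs were the core of the antioxidant response element, TGACNNNGC, and the core of the xenobiotic response element bound by the aryl hydrocarbon receptor, GCGTG, on both strands, in windows that also held the first 50 bases of the transcript. The only match in the 6 windows was 1 GCGTG on the opposite strand of Sult1d1, beginning at base -47. Among all 32851 RefSeq promoter windows, 12.4% held TGACNNNGC and 32.4% held GCGTG. Among the 64 windows of 52 matched conjugation genes the numbers with a match were 4 (6.25%) and 14 (21.9%). A match is a string of letters and not a measured binding site.

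Of the 61 genes, 50 had enough counts to be tested with edgeR's quasi-likelihood test over 16717 genes. A gene was called when its p, adjusted after Benjamini and Hochberg, was below 0.05 and its log2 fold change exceeded 1 in size. By this rule 5 were called higher after ethanol (Gstt3, Gstt2, Sult1a1, Sult1d1 and Sult1e1) and 3 lower (Gstm3, Gstm4 and Gsto2). The background was 10.4% of all genes called higher and 13.8% called lower, so neither count of 50 stands above it. DESeq2 gave the same 8 calls. On the adjusted p alone, 18 members were higher and 5 lower, against 21.5% of all genes in each direction. The lowest ethanol library lay above the highest control library for 22 members (28.0% of all genes) and the highest ethanol library below the lowest control for 8 (31.0% of all genes), while the groups overlapped for 20. The median log2 fold change was 0.34 for the members and -0.04 for all genes tested.

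The scaling of the libraries decided the direction of many of these genes. The TMM factors were 0.768 to 0.836 in the ethanol libraries and 1.26 to 1.27 in the controls. Scaling to library size alone moved the median of all genes by -0.67, and of the 36 members with a positive log2 fold change 25 then had a negative one. On that scale 4 members were called higher and 7 lower, beside 846 (5.06%) and 5385 (32.2%) of all genes, where TMM gave 1738 and 2301. The deposited FPKM values, which are fragments per length of transcript and per library size, are not scaled by TMM, and limma on log2(FPKM + 1) called 2 members higher and 4 lower (background 3.52% and 14.8%). Levels are given below in CPM, for many genes with FPKM or the log2 fold change under library size alone beside them. Shares within a family, which no scaling of libraries alters, are used where members of a family are set against each other.

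**Figure D1:**
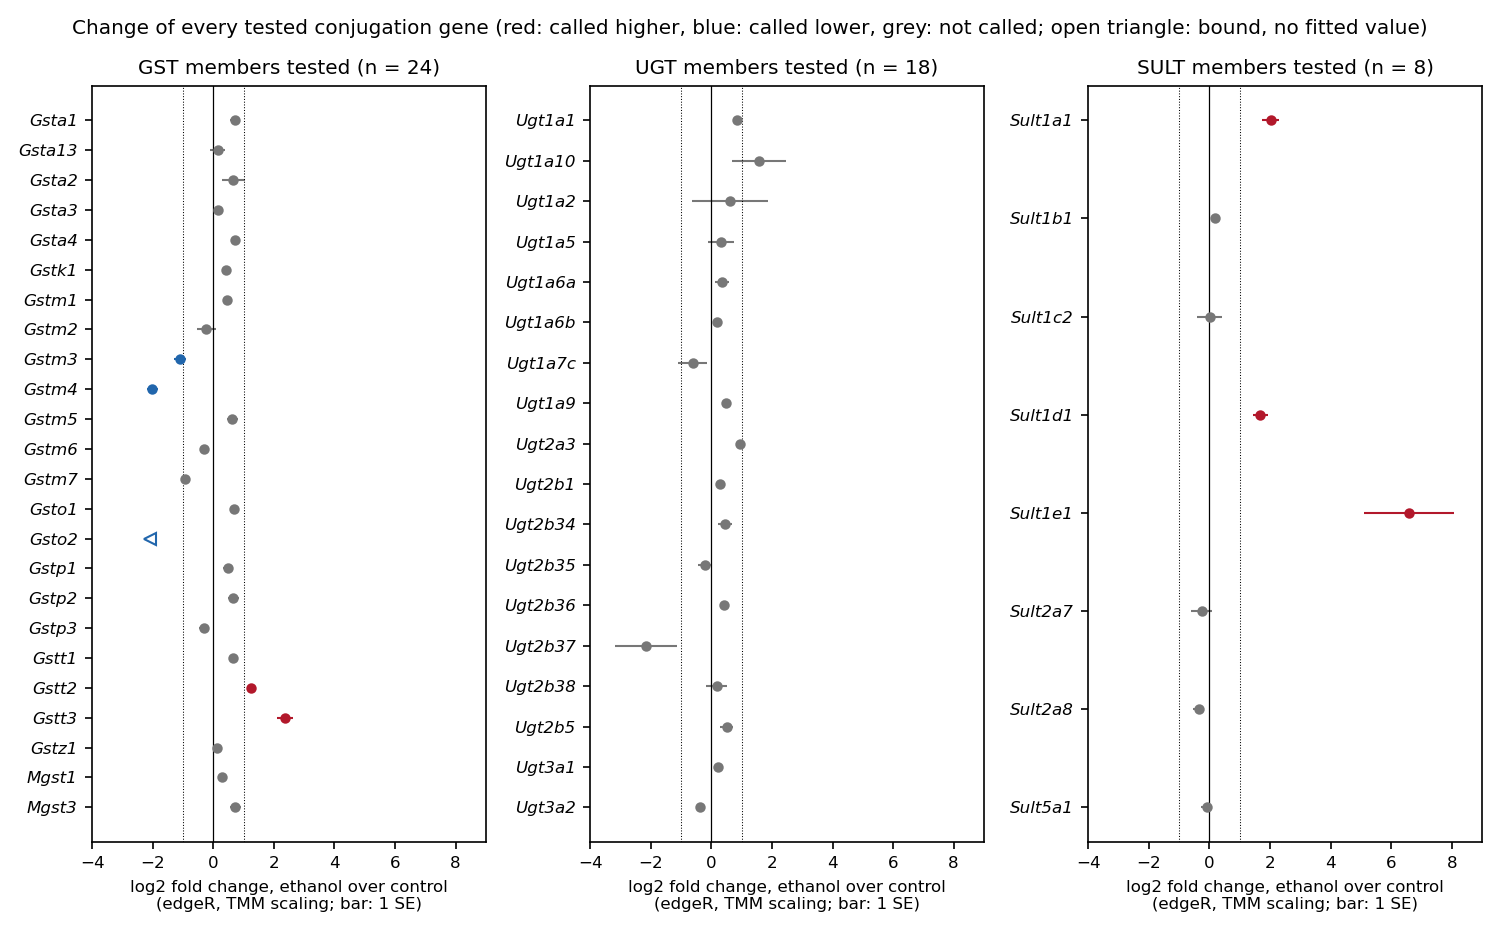
Log2 fold change (ethanol over control, TMM scaling, x axis) with its standard error for the 50 tested genes, in panels for GST, UGT and SULT genes. Dotted lines mark a log2 fold change of 1 in either direction. Red points (5 genes) were called higher and blue ones (3 genes) lower, no UGT gene was called, and Gsto2 is drawn at the bound that a floor of 3 counts gives.

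Among the cytosolic GSTs, 2 of 3 theta genes were called higher. Gstt3, one of the theta enzymes that conjugate small electrophiles, stood at 217, 216 and 318 CPM in the ethanol libraries and 65.9, 41.8 and 38.9 CPM in the controls. Every ethanol library was above every control. Its log2 fold change was 2.36 ± 0.26 (SE, n = 3 per group, edgeR adjusted p = 0.000673), and 1.68 with library size alone. Gstt2 stood at 89.2, 88.0 and 107 CPM against 47.3, 36.1 and 35.5 CPM, a log2 fold change of 1.26 ± 0.15 (edgeR adjusted p = 0.000969), which was no longer called with library size alone (0.58, adjusted p = 0.0123). Gstt1, the most abundant of the 3, was at 247 ± 31.6 CPM (SD, n = 3) after ethanol and 158 ± 8.20 CPM in controls, and at 119 ± 12.7 against 122 ± 6.60 FPKM, so that its log2 fold change of 0.64 under TMM became -0.03 with library size alone.

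The make-up of the theta class differed between the groups in a way that does not depend on the scaling. Gstt3 made up 24.9%, 24.6% and 28.2% of the summed Gstt FPKM after ethanol and 12.5%, 9.23% and 8.30% in controls. Gstt1 fell from 82.4% ± 2.84 to 64.9% ± 1.60 (SD, n = 3) of the sum, and the groups did not overlap for either gene. Gstt2 took 9.16% ± 0.377 after ethanol and 7.55% ± 0.654 in controls, but its share of counts, 16.1% ± 0.885 against 16.0% ± 0.824, overlapped. The 3 genes lie together on chromosome 10. Gstt3 shares 16.3% of its transcript words of 150 bases with the overlapping gene Gm20441, to which the table gives 53, 21 and 101 counts after ethanol and 0 in each control, against 12501, 13199 and 17356 counts of Gstt3 after ethanol.

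In the mu class, which conjugates epoxides and other products of oxidation, 2 of 7 genes were called lower and none higher. Gstm4 stood at 20.1, 17.4 and 12.6 CPM after ethanol and 69.2, 64.3 and 68.0 CPM in controls. The groups were far apart, with a log2 fold change of -2.01 ± 0.18 (edgeR adjusted p = 0.000303), and the call held under all 18 alternatives. Gstm3 was at 42.3, 39.2 and 62.0 CPM against 86.5, 106 and 112 CPM, a log2 fold change of -1.09 ± 0.20 (edgeR adjusted p = 0.00473). Without ethanol replicate 2 it was -0.97 (adjusted p = 0.0152) and was not called. Gstm7, named here after its value was seen, was at 24.4 ± 0.940 against 47.2 ± 2.24 CPM, and its log2 fold change of -0.95 (adjusted p = 0.000507) lay just inside the fold threshold, while with library size alone it was -1.61 and called. Gstm5, a low member, was at 7.34 ± 1.32 against 4.75 ± 0.415 CPM (log2 fold change 0.63, adjusted p = 0.0334) but overlapped in FPKM (4.21 ± 0.583 against 4.36 ± 0.369). Gstm1, which supplied most of the class, had 1870, 1750 and 1590 CPM against 1330, 1220 and 1250 CPM, but 919, 926 and 772 FPKM against 1070, 975 and 995 FPKM, so its direction turned with the scaling (0.45 under TMM, -0.21 with library size alone).

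Within the mu class, Gstm1 made up 89.7% ± 2.47 of the summed Gstm FPKM after ethanol and 78.9% ± 1.77 in controls. The share of Gstm4 was 0.742% ± 0.132 against 3.61% ± 0.0463, that of Gstm3 2.81% ± 0.870 against 7.13% ± 1.06, that of Gstm6 2.78% ± 0.391 against 4.11% ± 0.163 and that of Gstm7 1.17% ± 0.0561 against 2.70% ± 0.0609, with no overlap between the groups for any of these 5 genes. The shares of Gstm2 and Gstm5 overlapped. Gstm2 differed within the ethanol group, at 34.7, 37.0 and 78.6 CPM, with the third library above the controls (49.1 to 66.5 CPM) and the other 2 below them. All 7 genes are neighbours on chromosome 3, and none of Gstm1, Gstm4, Gstm6 and Gstm7 shares a transcript word of 150 bases with another gene.

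**Figure D2:**
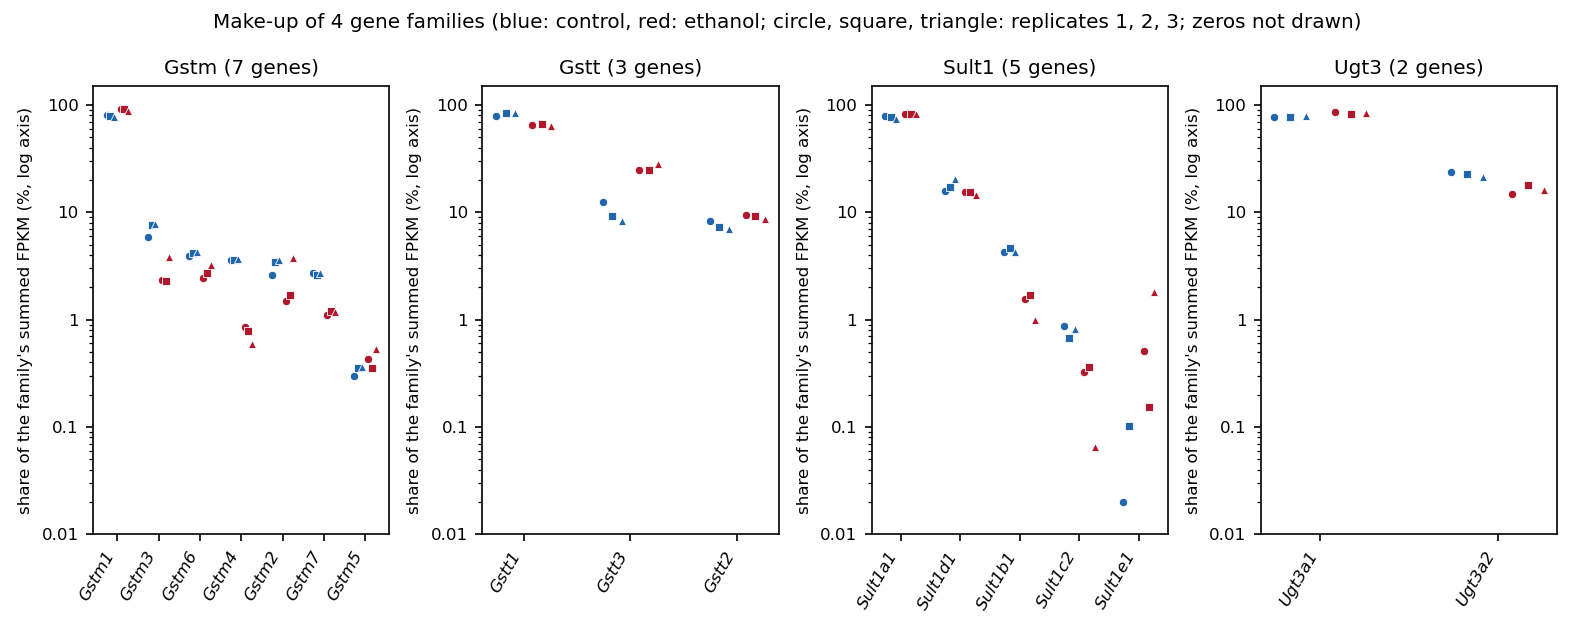
Share of each gene in the summed FPKM of its family (y axis, %, log scale) for the Gstm, Gstt, Sult1 and Ugt3 families, with 1 symbol per library. Gstm4 fell from 3.61% to 0.742% of its family on average, and Gstt3 went from between 8.30% and 12.5% in controls to between 24.6% and 28.2% after ethanol, with no overlap between the groups.

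Of the remaining GSTs only Gsto2 was called. It had 0 counts in each ethanol library and 23, 14 and 20 in the controls, which is at least 4.30-fold lower against a floor of 3 counts per library (counting error only). Gsto2 was not called with the replicate number as a block (edgeR adjusted p = 0.061) or by limma on log2(FPKM + 1) without a filter (-0.15). The filters on FPKM and on a CPM of 1 left it untested. Its level in controls was a small fraction of that of its partner Gsto1, a reductase of dehydroascorbate, at 102 ± 5.05 CPM after ethanol and 64.6 ± 1.06 CPM in controls. Gsto1 was alike in FPKM (37.6 ± 3.58 against 37.7 ± 0.631), and its log2 fold change of 0.67 under TMM was 0.00 with library size alone. The alpha class, which acts on aldehydes and steroid substrates, held 5 tested genes with log2 fold changes of 0.15 to 0.71 under TMM and none called. Gsta4, the enzyme for hydroxynonenal, was at 76.0 ± 5.95 against 46.5 ± 6.43 CPM (log2 fold change 0.71, adjusted p = 0.00495), and at 0.04 with library size alone. Gsta3, the most abundant alpha gene, overlapped between the groups in CPM (1070 ± 179 against 960 ± 53.0) but was lower in every ethanol library in FPKM (191, 215 and 143 against 278, 255 and 249), with a log2 fold change of 0.16 under TMM and -0.51 with library size alone.

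The genes with the most transcript per length were Mgst1, the membrane-bound GST of endoplasmic reticulum and mitochondria, Gstp1 of the pi class and Gstm1. They made up 26.2%, 25.7% and 22.7% of the summed mean FPKM of all GSTs. Mgst1 stood at 1040, 959 and 848 FPKM after ethanol and 1220, 1190 and 1260 FPKM in controls, but at 2580 ± 266 against 2090 ± 64.4 CPM. Its log2 fold change was 0.30 (adjusted p = 0.0767) under TMM and -0.36 (adjusted p = 0.0388) with library size alone. Gstp1 was at 1180, 820 and 988 FPKM against 1070, 1210 and 1140 FPKM, and its ethanol libraries spread more widely than its controls. Gstp1 and Gstp2 share 29.4% and 31.6% of their transcript words with each other and with the pseudogene Gstp-ps, so their values are uncertain. Gstz1, an isomerase of tyrosine breakdown, and Gstk1 of mitochondria and peroxisomes were not called, and both turned with the scaling (0.12 and 0.42 under TMM, -0.55 and -0.24 with library size alone). Mgst3, a low member at 8.06 FPKM on average, stood at 0.73 on the log2 scale (edgeR adjusted p = 0.0161) under TMM and at 0.06 with library size alone, and its FPKM values overlapped (8.23 ± 1.74 against 7.89 ± 1.15).

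Among the sulfotransferases, 3 of 5 genes of the Sult1 family rose. Sult1a1, the main phenol sulfotransferase, stood at 584, 542 and 1060 CPM after ethanol and 203, 162 and 172 CPM in controls. All ethanol libraries were above the controls, and the third was far above the other 2. The log2 fold change was 2.02 ± 0.27 (edgeR adjusted p = 0.00147), 1.66 without ethanol replicate 3 and 1.34 with library size alone, and the call held under all 18 alternatives. Sult1d1, which sulfates catechols and other phenols, followed the same order at 181, 166 and 301 CPM against 67.0, 58.4 and 76.5 CPM. Its log2 fold change was 1.68 ± 0.24 (edgeR adjusted p = 0.00191), and limma on log2(FPKM + 1) gave 0.95, short of the fold threshold.

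Sult1e1, the estrogen sulfotransferase, was close to absent in the controls, with 5, 14 and 0 counts, and had 172, 51 and 1031 counts after ethanol. The ethanol libraries differed by 22.7 times among themselves in CPM, and all were above the controls. The log2 fold change was 6.59 ± 1.48 (edgeR adjusted p = 0.0107). Without ethanol replicate 3 it was 4.61, and without control replicate 1 the adjusted p was 0.0536 and the gene was not called. It was also not called by limma on log2(FPKM + 1), at 1.78 (adjusted p = 0.0531, and 0.127 without a filter). Even so, its ethanol level of 7.57 ± 9.86 CPM was a small part of that of Sult1a1. Sult1e1 and Sult1d1 are neighbours on chromosome 5, next to Sult1b1, a sulfotransferase of thyroid hormones, which was not called (adjusted p = 0.209). Sult1b1 was at 21.6 ± 1.71 against 18.9 ± 1.15 CPM but at 5.73 ± 0.358 against 8.01 ± 0.512 FPKM, without overlap on either scale. Its share of the Sult1 FPKM was 1.42% after ethanol and 4.42% in controls.

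**Figure D3:**
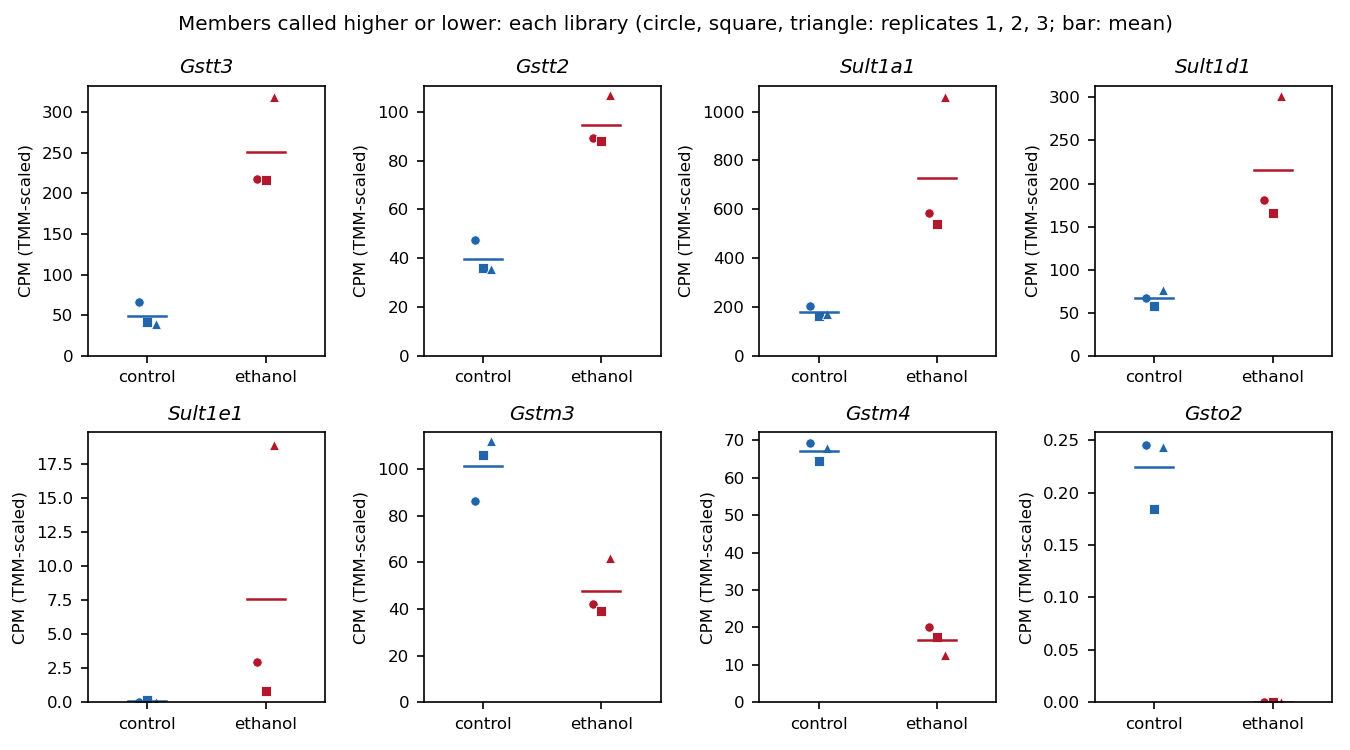
TMM-scaled CPM (y axis, from 0) in each control (blue) and ethanol (red) library for the 8 called genes, with bars at the group means. In Sult1a1, Sult1d1, Sult1e1 and Gstt3 the third ethanol library is the highest, at 1060, 301, 18.9 and 318 CPM.

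No Sult2 gene was called. Sult2a8, a bile acid sulfotransferase of mouse liver and the second most abundant SULT, was at 561, 541 and 370 CPM after ethanol and 697, 599 and 598 CPM in controls. In FPKM it was at 124, 128 and 80.7 against 251, 215 and 214. It was lower in every ethanol library on both scales, but its log2 fold change of -0.36 (adjusted p = 0.136) did not pass under TMM, while with library size alone it was -1.03 (adjusted p = 0.00363) and called. Sult1a1 is a minus-strand gene that overlaps Sgf29 on the other strand, to which the table gives 565, 646 and 294 counts after ethanol and 1013, 869 and 838 in controls, against 33591, 33152 and 57768 counts of Sult1a1 after ethanol. Sult5a1 had a log2 fold change of -0.09 and Sult2a7, which averaged 0.514 FPKM, one of -0.26 (adjusted p = 0.56), and neither was called. Of the 15 SULT genes 7 were not tested (Sult2a1, Sult2a6, Sult2b1, Sult3a1, Sult3a2, Sult4a1 and Sult6b1), with at most 21 counts in any library.

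None of the 18 tested UGT genes was called by edgeR's quasi-likelihood test with all 6 libraries, while leaving out 1 library brought calls for 4 of them, given below. At an unadjusted p under 0.05, 5 were higher and 1 lower, beside 25.6% and 26.7% of all genes, and DESeq2 called none. On the adjusted p alone 4 were higher (Ugt1a1, Ugt1a9, Ugt2a3 and Ugt2b36). With library size alone Ugt3a2 and Ugt2b37 were called lower. Ugt1a1, the enzyme of bilirubin glucuronidation, stood at 826, 826 and 659 CPM after ethanol and 474, 412 and 416 CPM in controls (log2 fold change 0.83 ± 0.13, edgeR adjusted p = 0.00297), and at 269, 290 and 212 FPKM against 252, 218 and 220 FPKM. Ugt2a3, named after its value was seen, had 314, 309 and 259 CPM against 159, 148 and 145 CPM, and its log2 fold change of 0.96 ± 0.12 (edgeR adjusted p = 0.000979) lay just inside the threshold. In FPKM its groups overlapped (108, 114 and 87.7 against 89.0, 82.3 and 80.8), and with library size alone its log2 fold change was 0.30 (adjusted p = 0.0916). Ugt1a9, a further form, was at 190 ± 15.0 against 136 ± 14.5 CPM but at 64.1 ± 2.73 against 73.2 ± 8.02 FPKM, and its log2 fold change of 0.48 under TMM was -0.19 with library size alone. Ugt2a3 passed the threshold without ethanol replicate 3 (1.06) and without control replicate 1 (1.00).

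In the steroid-conjugating Ugt2 family, all 8 tested genes had their lowest ethanol value in replicate 3, and 14 of the 18 UGT genes did. Ugt2b5, the most abundant UGT, stood at 1200, 1080 and 678 CPM after ethanol and 701, 708 and 672 CPM in controls, so that replicates 1 and 2 were above the controls and replicate 3 lay among them. Ugt2b36 had 662, 612 and 480 CPM against 431, 453 and 419 CPM (log2 fold change 0.43, adjusted p = 0.0437, and -0.24 with library size alone). Ugt2b34 had 587, 602 and 314 CPM against 339, 374 and 387 CPM. Ugt2b35 had 177, 144 and 90.3 CPM against 155, 161 and 158 CPM. The summed Ugt2 FPKM was 1190, 1160 and 748 after ethanol and 1180, 1260 and 1190 in controls. Ugt2b37 ranged from 1.23 to 25.4 CPM among the controls and from 1.23 to 6.45 CPM after ethanol, and was called lower only without control replicate 1 (log2 fold change -2.71, adjusted p = 0.0248) and with library size alone.

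**Figure D4:**
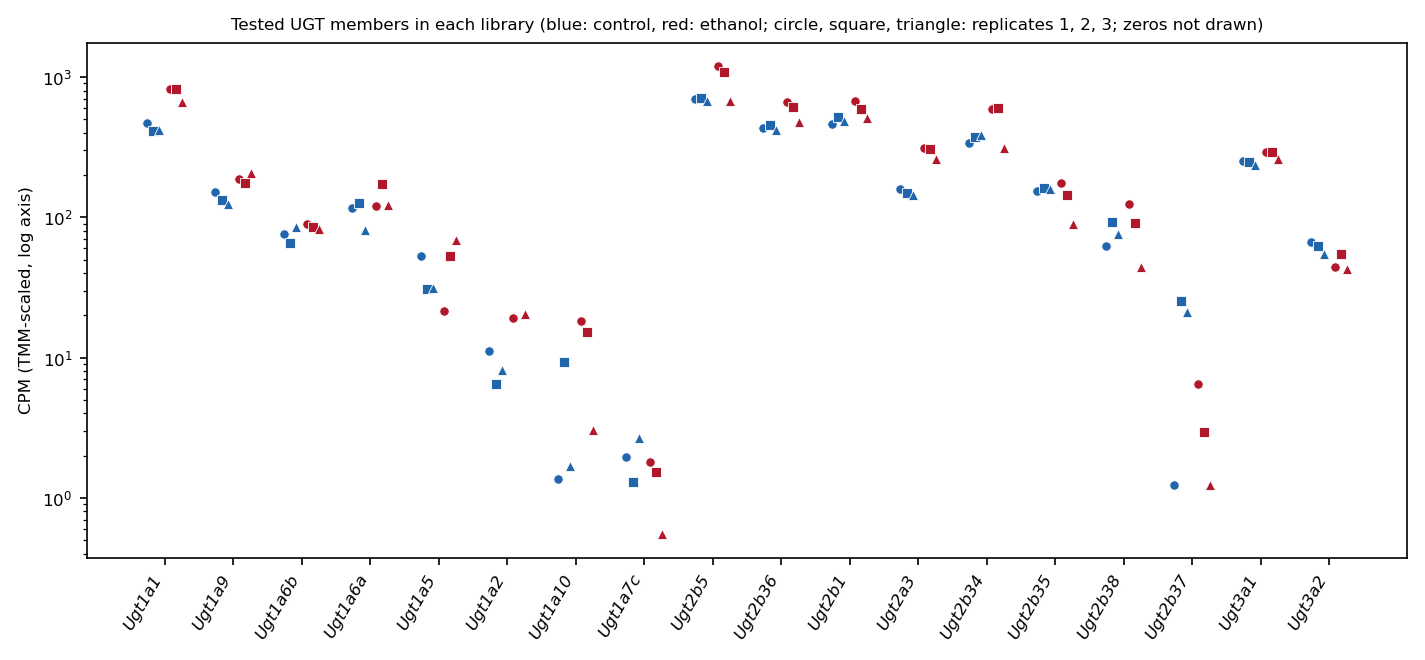
TMM-scaled CPM (y axis, log scale) of the 18 tested UGT genes in each library, with controls in blue and ethanol libraries in red. The third ethanol library (red triangle) is the lowest of its group in all 8 Ugt2 genes, for instance 678 CPM for Ugt2b5 against 1200 and 1080.

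The 9 Ugt1 genes of the table are alternative first exons joined to shared exons on chromosome 1. They share 49.2% to 95.2% of their transcript words of 150 bases, so counts can be split differently among them from library to library. Ugt1a2 had 1097, 0 and 1112 counts after ethanol and 1053, 492 and 670 in controls, and Ugt1a10 had 1054, 930 and 166 against 128, 707 and 139. Both overlapped between the groups. Ugt1a2 was called higher without ethanol replicate 2, and Ugt1a10 was called higher without ethanol replicate 3 and without control replicate 2. The sum over the locus was steadier, at 1290, 1330 and 1160 CPM after ethanol and 887, 784 and 749 CPM in controls, and at 397 ± 40.4 against 398 ± 36.5 FPKM. Within the locus, Ugt1a1 took 64.6% ± 4.19 of the FPKM after ethanol and 57.8% ± 0.963 in controls. In the Ugt3 family, which transfers other sugars than glucuronic acid, Ugt3a2 went from 22.4% ± 1.19 of the family in controls to 16.2% ± 1.48 after ethanol, without overlap. Ugt3a1 was at 283 ± 18.2 against 245 ± 7.83 CPM and was not called, and its log2 fold change of 0.21 under TMM was -0.46 with library size alone.

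Summed by class, the direction depended on the unit for GSTs and UGTs and not for SULTs. GST genes summed to 3740 ± 306 FPKM after ethanol and 4560 ± 22.2 FPKM in controls, but to 9460 ± 845 against 7330 ± 75.3 CPM. The UGT sums were 1510 ± 290 against 1730 ± 45.4 FPKM, with overlap between groups, and 4780 ± 816 against 3500 ± 83.6 CPM. SULT genes summed to 544 ± 128 against 413 ± 39.0 FPKM and 1480 ± 270 against 912 ± 79.1 CPM. In FPKM the direction for SULTs depended on 1 gene, since without Sult1a1 the SULT sum was 189 ± 1.67 FPKM after ethanol and 272 ± 21.8 FPKM in controls. The sum without Sult1a1 was taken in FPKM only.

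**Figure D5:**
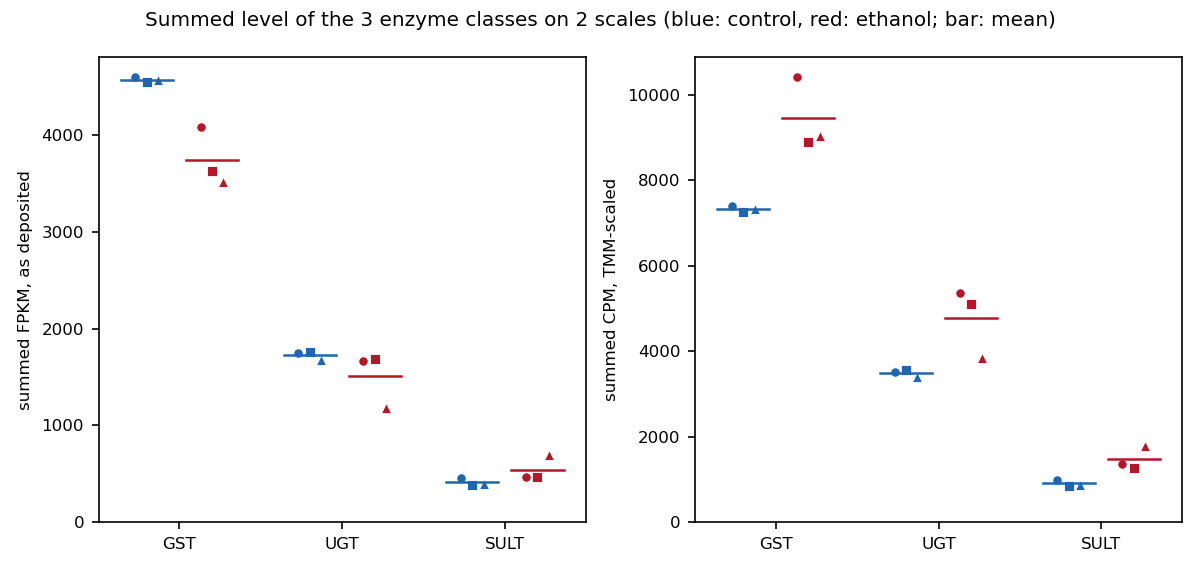
Summed level of the 26 GST, 20 UGT and 15 SULT genes in each library, as FPKM (left) and as TMM-scaled CPM (right), controls in blue and ethanol libraries in red with bars at the means. GST sums are lower after ethanol in FPKM (3740 against 4560) and higher in CPM (9460 against 7330).

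The genes that supply the cofactors were taken from lists, whose counts stand beside the all-gene shares of 10.4% called higher and 13.8% lower under TMM, and 5.06% and 32.2% with library size alone. On the latter scale 2 genes of UDP-glucuronate supply and 2 of PAPS supply were called lower and none of either higher. In the supply of UDP-glucuronate, 1 of 7 genes was called, Ugdh, the dehydrogenase that makes it, with 87.0, 68.0 and 57.3 CPM after ethanol and 126, 163 and 146 CPM in controls (log2 fold change -1.04, edgeR adjusted p = 0.00374). It was not called without ethanol replicate 3 (-0.89), without control replicate 2 (-0.94) or with the length trend removed (-0.84). Akr1a1, the most abundant gene of that list, was at 348 ± 42.6 against 251 ± 10.2 CPM and was not called. For PAPS and sulfate, 2 of 11 were called. The sulfate transporter Slc26a1 had 27.1, 36.0 and 10.4 CPM against 137, 137 and 132 CPM, a log2 fold change of -2.46. The steroid sulfatase Sts had one of 1.01, which was 0.35 and not called with library size alone, and it was not called without ethanol replicate 1 (0.97), ethanol replicate 2 (0.93) or control replicate 3 (0.90), or with the length trend removed (0.84). The number of genes of this list called higher also changed under DESeq2, upper quartile factors, no filter on low counts and limma. Papss2, a PAPS synthase and the most abundant gene of the list, overlapped between the groups (131 to 178 CPM over all libraries).

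For glutathione, 3 of 16 tested genes were higher and 2 lower (10.4% and 13.8% of all genes). With library size alone 2 were higher and 4 lower (5.06% and 32.2% of all genes). Gclc, the catalytic subunit of the rate-limiting ligase, had 127, 157 and 49.5 CPM against 308, 294 and 288 CPM (log2 fold change -1.42, edgeR adjusted p = 0.0202), and Chac2 fell by 1.96. The adjusted p of Gclc was 0.0527 without ethanol replicate 1 and 0.0635, 0.0582 and 0.0574 without control replicates 1, 2 and 3, and it was then not called. Chac1, which breaks down glutathione, rose by 5.12 and the glutaredoxin Glrx by 2.05. Oplah, an oxoprolinase, had a log2 fold change of 1.03, which was 0.36 with library size alone and 0.96 without control replicate 3, and was then not called. Cth, the most abundant gene of the list and an enzyme of cysteine synthesis, had 926, 838 and 376 CPM against 539, 461 and 467 CPM and overlapped between the groups. Of 16 other conjugating enzymes, 2 were higher and 1 lower, and with library size alone 1 was higher and 3 lower. Nnmt, a methyltransferase of nicotinamide, had 451, 358 and 1740 CPM against 50.1, 80.0 and 73.1 CPM (log2 fold change 3.65). Inmt, another methyltransferase, had a log2 fold change of 1.17, which was 0.51 with library size alone, 0.97 without control replicate 2 and 1.07 (adjusted p = 0.0681) without control replicate 3, and was then not called. Gnmt, the glycine methyltransferase and the most abundant of them, had one of 0.86.

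Of 22 regulators 8 were called higher (Ahr, Arnt, Bach1, Cebpb, Cux2, Nr1h4, Nr1i2 and Onecut1) and Bcl6 lower, beside 10.4% and 13.8% of all genes. With library size alone 2 were higher (Cebpb and Cux2) and 5 lower, beside 5.06% and 32.2% of all genes on that scale. Leaving out 1 library lost the calls of Bcl6 without ethanol replicate 3 (-0.90) or control replicate 1 (-0.81), of Cux2 without control replicate 1 or 2 (adjusted p = 0.0711 and 0.0714), and of Nr1h4 without ethanol replicate 1 (0.80) or control replicate 2 (0.94). Removing the length trend lost Bcl6 (-0.85), and TMM factors from genes with a mean FPKM of 5 or more lost Nr1h4 (0.74), Nr1i2 (0.92) and Onecut1 (0.84). Cebpb, a factor of the acute phase and the most abundant of the list, had 775, 773 and 577 CPM against 65.0, 73.7 and 77.7 CPM. Nr1i2, which encodes PXR, had 166, 164 and 82.6 CPM, above the controls at 56.5 to 63.4 CPM. Nfe2l2, which encodes NRF2, was at 61.2, 58.1 and 35.9 CPM against 59.5, 65.1 and 64.8 CPM and was not called.

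Of 12 target genes of these regulators, 6 were higher (Alas1, Cyp2b10, Hmox1, Por, Srxn1 and Tiparp) and Cyp2c55 lower, beside 10.4% and 13.8% of all genes. Hmox1 and Srxn1 were not called with library size alone. Srxn1 was also not called without control replicate 1, 2 or 3 (adjusted p = 0.0635, 0.0622 and 0.0611). Cyp2b10, a target of CAR, had 74.9, 87.7 and 106 CPM against 6.25, 3.40 and 4.46 CPM. Por, the reductase of cytochromes P450, had 1170, 1120 and 940 CPM against 97.0, 80.2 and 80.8 CPM. Nqo1, a target of NRF2, stood at 3.66 ± 0.450 against 3.41 ± 0.332 CPM and Cyp3a11, a target of PXR and the most abundant of the list, had a log2 fold change of 0.25, and neither was called. Of 14 transport genes, Abcc4 and Slco1a4 were called higher and Abcc5 and Rdx lower, and with library size alone none was called higher and 4 lower, counts near the all-gene shares. Abcc2, the canalicular exporter of conjugates, stood at 433, 473 and 319 CPM against 335, 350 and 341 CPM, and Slco1b2, the most abundant of the list, at 456, 504 and 198 CPM against 670, 586 and 619 CPM.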

How the data were processed

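Bulk liver RNA from 3 ethanol-exposed and 3 control mice was sequenced by the authors as paired-end reads of 150 bases. The authors removed adaptor, low-quality and ambiguous reads, aligned the rest and deposited, per Ensembl gene, whole-number counts that were not normalized, and FPKM values scaled to transcript length and library size. The aligner, the counting tool and the use of strand are not given in the sources used here. The submitters' processing notes name GRCm38 (mm10), yet the start and end of none of the 61 members match the GENCODE M21 annotation of GRCm38, so only chromosomes are given for them. The table held 1 further column of counts that was not used.

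Groups were read from the sample labels. The members and the gene lists were chosen with earlier results of these data known. Genes named are those called, the 2 with the highest mean FPKM in each family, the genes called in each list and its most abundant gene, except for a list gene that is not reported here. Gstm6, Gstm7, Ugt2a3, Ugt2b37 and others given by their values were named after these were seen.

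In R 4.3.3, edgeR 4.0.16 tested the 16717 genes kept by filterByExpr (TMM factors, quasi-likelihood test, two-sided, no covariate, Benjamini-Hochberg adjustment). SE values are the log2 fold change divided by the root of the F statistic. At 60514417 counts or more per library, the number of mice sets the precision. The bound on Gsto2 uses a floor of 3 counts. Sums and shares received no test. Alternatives were other scalings and filters, DESeq2 1.42.0, limma 3.58.1 on log2(FPKM + 1), the replicate number as a block, removal of the trend with length, and leaving out each library. Promoters and motifs were read from RefSeq with Python 3.11.15, and transcript words of 150 bases from GENCODE M21. The fits were tested on simulated counts in which both groups had the control profile apart from the changed genes. EdgeR recovered 87.4% of 199 changed genes, DESeq2 86.4% of them and limma 70.7% of 157. Such counts hold no shift in scaling like that of these libraries, so they do not test it.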

Additional observations from a re-analysis of the deposited data

How the results depend on the processing

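Under median ratio factors, no filter on low counts, DESeq2 and removal of the length trend the 8 calls were kept. Counts of members called higher (5) and lower (3) became 18 and 5 with no threshold on the fold change, 4 and 7 with library size alone, 2 and 4 with limma on log2(FPKM + 1), 3 and 5 with limma on log2(FPKM + 0.1) and 2 and 4 without a filter on FPKM. Leaving out each library gave 5 to 7 higher and 2 to 4 lower. The class sums, as log2 ratios of mean FPKM, were -0.29 for GST, -0.20 for UGT and 0.40 for SULT, and SULT was -0.53 without its most abundant member. From summed CPM the ratios of the 3 classes were 0.37, 0.45 and 0.70. The 2 units differ in scaling and in the weight given to long transcripts. With a minimum CPM of 1 in 3 libraries, Gsto2 and Sult1e1 were not tested, and 4 were called higher and 2 lower.

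Replicate numbers did not pair the samples (correlations of same-numbered libraries of -0.035, -0.021 and -0.017), and with the replicate block 5 members were called higher and 2 lower, Gsto2 being lost (-6.99, edgeR adjusted p = 0.061).

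Among the genes named by rule, direction turned with library size alone for Gstp2 (-0.02), Gstt1 (-0.03), Ugt2b5 (-0.15), Ugt1a9 and Gstp1 (-0.19), Gstm1 (-0.21), Gstk1 and Ugt2b36 (-0.24), Mgst1 (-0.36), Ugt3a1 (-0.46), Gsta3 (-0.51), Gstz1 (-0.55) and Gsto1 (0.00). In limma on log2(FPKM + 1), with or without the filter, the same genes were, in this order, at -0.04, -0.03, -0.20, -0.18, -0.21, -0.22, -0.25 (Gstk1 and Ugt2b36), -0.37, -0.46, -0.53, -0.55 and -0.01, and with a pseudocount of 0.1 Ugt1a9 was at -0.19, Ugt2b36 at -0.26, Ugt3a1 at -0.47 and the others within 0.01 of these. TMM factors from genes with a mean FPKM of 5 or more, chosen after seeing the data, moved the median of all genes by -0.27, ended the call of Gstt2 (0.99) among the conjugation genes and of Sts (0.74), Oplah (0.76), Inmt (0.89), Nr1h4, Nr1i2 and Onecut1 in the lists, and turned Ugt3a1 (-0.07), Gsta3 (-0.12) and Gstz1 (-0.15). Sult5a1 (-0.09) became 0.08 with the length trend removed and 0.07 without ethanol replicate 2. Shares of counts in place of FPKM, also added after seeing the data, kept the direction of the shares given above, except for Gstt2, whose groups then overlapped.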

Other observations

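Of the 50 tested conjugation genes, 10 differed by more than 2 times between the lowest and the highest library of a group (Gsta2, Gstm2, Sult1c2, Sult1e1, Ugt1a2, Ugt1a5, Ugt1a7c, Ugt1a10, Ugt2b37 and Ugt2b38). Of these, 6 share transcript words of 150 bases with another gene, against 11 of the other 40. Wide ratios occurred in both kinds of gene: Ugt1a2, which shares 62.0% of its words, had 0 counts in ethanol replicate 2 and 1097 and 1112 in the others, while Sult1e1 (22.7 times) and Ugt2b37 (20.7 times) share none. These counts were made after the values were seen and were not tested. Gsta2 stood at 52.4, 19.4 and 19.5 CPM in the controls and at 47.3, 43.1 and 52.5 CPM after ethanol. Gsta5, which shares 24.1% of its words with Gsta13, Gsta2 and Gsta1, had 67 counts in ethanol replicate 2, 40 in control replicate 2 and 0 in the other 4 libraries.

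Outside the tested genes, Mgst2 had 5 counts in ethanol replicate 3, 9 in control replicate 1 and 0 elsewhere, and Ugt2a1, which shares 92.8% of its words with other genes, had 16 counts in ethanol replicate 3 and 0 elsewhere. Sult3a2 had 0 counts in every library.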
